A study of Saccharomyces cerevisiae with 36 samples.

Results

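SSA1, SSA2, SSA3 and SSA4 encode the cytosolic Hsp70 chaperones of the budding yeast Saccharomyces cerevisiae. The 4 genes were taken by name from a table of read counts for 7126 genes, and all 4 passed the filter on low counts that left 6109 genes for testing. Transcripts were measured by poly-A-selected RNA sequencing in 36 libraries, with 3 libraries in each of 12 groups made of 4 strains and 3 conditions. Every strain carried the background MATa his3∆1 leu2∆0 ura3∆0 met15∆0. WT had no further change. In the hsf1∆ strain the HSF1 gene was replaced by a cassette that holds the chaperone genes YDJ1, HSC82 and SSA2 with a kanMX marker. The labels read as giving these genes the promoters PADH1, PTEF1 and PTDH3, in that order. The HSF1+ strain carried the same cassette at the same locus together with HSF1+ itself, and its genotype also lists LYS2. The strain labelled msn2/4∆ carried msn2::hphMX4 with msn4::natMX4. Untreated cells stayed at 25 °C, heat-shocked cells spent 15 min at 37 °C, and AzC cells received 10 mM AzC for 1 h at 25 °C. The hsf1∆ and HSF1+ strains therefore carried an additional SSA2 coding sequence under a foreign promoter, and their SSA2 counts could hold transcripts of the native gene and of the cassette copy alike. How many clones stood behind each strain was not given in the sources used here.

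Hsp70 proteins bind exposed hydrophobic stretches of unfolded or newly made proteins and release them in a cycle driven by ATP, with J-proteins stimulating hydrolysis and exchange factors removing ADP. Of the yeast cytosolic family, Ssa1 and Ssa2 are known as the forms of unstressed cells, whereas Ssa3 and Ssa4 are known as stress-induced forms. Hsf1 is the heat shock transcription factor and is essential in ordinary strains; free Ssa protein is known to hold it inactive, so that SSA genes are both its targets and its regulators. Msn2 and Msn4 are the factors of the general stress response. AzC is azetidine-2-carboxylic acid, a proline analogue that is built into new proteins and makes them misfold.

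Total counts per library ran from 8159203 to 99558095 with a median of 13193875.5. Of the 36 libraries, 4 held 42724231 counts or more (WT untreated replicates 2 and 3, HSF1+ AzC replicates 1 and 2), and the rest held at most 15448180. Levels are given as CPM (counts scaled to library size, with TMM factors), mean ± SD of 3 libraries. HSF1 itself stood at 98.4 ± 3.76 CPM in untreated WT, 55.4 ± 1.52 CPM in untreated HSF1+ and 14.6 ± 2.15 CPM in untreated hsf1∆. In hsf1∆ it was at 26.7 ± 6.73 CPM after heat shock and 12.1 ± 3.07 CPM after AzC. Some HSF1 counts thus remained in that strain, and their source was not tested. In the strain labelled msn2/4∆, untreated MSN2 was at 1.41 CPM against 132.4 CPM in WT, but MSN4 was at 52.9 CPM against 38.4 CPM in WT, so the counts showed the loss of MSN2 transcript and not of MSN4 transcript. The 5 MATa-specific marker genes summed to between 239 and 1855 CPM over the libraries, and the 4 MATalpha-specific markers to between 49.7 and 105.8 CPM.

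The 4 genes are spread over 4 chromosomes of build R64, each as 1 exon with no other RefSeq gene overlapping it. SSA1 (YAL005C) lies at chrI:139503-141431 on the minus strand, SSA2 (YLL024C) at chrXII:95566-97485 on the minus strand, SSA3 (YBL075C) at chrII:84499-86448 on the minus strand and SSA4 (YER103W) at chrV:364589-366517 on the plus strand. Coding lengths were 1929, 1920, 1950 and 1929 bases in the same order. YAL004W, listed in the count table and known as a dubious frame opposite SSA1, reached at most 1.70 CPM in any library.

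The coding sequences fall into a close pair and a looser pair, which matters for what a read count can show. SSA1 and SSA2 were identical at 96.4% of aligned coding bases and 97.7% of residues. SSA3 and SSA4 were identical at 76.1% of bases and 87.7% of residues, and the other 4 pairings ranged from 73.0% to 73.5% of bases and from 80.0% to 81.9% of residues. The stretch below opens the longest run shared by SSA1 and SSA2 (383 bases, coding bases 403 to 785) and shows coding bases 403 to 462 of all 4 genes, from chrI:140970-141029, chrXII:97024-97083, chrII:85987-86046 and chrV:364991-365050 of R64, each read on the gene's own strand. Capitals mark bases that differ from SSA1.
SSA1: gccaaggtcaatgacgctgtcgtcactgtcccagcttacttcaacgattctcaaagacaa
SSA2: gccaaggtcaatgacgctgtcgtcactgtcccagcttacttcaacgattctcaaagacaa
SSA3: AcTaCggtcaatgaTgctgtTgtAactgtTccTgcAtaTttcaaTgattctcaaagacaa
SSA4: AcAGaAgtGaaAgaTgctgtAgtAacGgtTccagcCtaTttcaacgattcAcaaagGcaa
SSA2 has 0 differences from SSA1 in these 60 bases, SSA3 has 11 and SSA4 has 15. Of all windows of 50 bases in SSA1, 57.9% occurred unchanged in SSA2, and of windows of 150 bases 35.6% did. None of the 50-base windows of SSA1 occurred in SSA3 or SSA4. Counts of SSA1 and SSA2 therefore depend on how shared reads were assigned, a rule not given in the sources used here, while SSA3 and SSA4 could be told apart from every other member at that length. In untreated hsf1∆ libraries SSA1 stood at 2.10% ± 0.435 of the SSA2 level, so reads from the shared windows were not counted in full for both genes. Levels of SSA1 and SSA2 may be understated against SSA3 and SSA4, and the changes of the close pair are given below also for their summed counts.

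The sequences before the start codons were read next because Hsf1 and Msn2/4 are known to bind short DNA elements there. Each line below shows 120 bases, placed to hold as many matched bases as possible, 5′ to 3′ on the gene's strand, with capitals for matches to GAANNTTC or TTCNNGAA, the paired units of the heat shock element. SSA3 has no such match in its 500 upstream bases, so the window at the same distance as that of SSA4 is shown, and its capitals mark a match to TTAGGGAT, one spelling of the post-diauxic shift element known from this gene. The stretches are chrI:141680-141799 (368 to 249 bases before the start codon), chrXII:97644-97763 (278 to 159 bases before), chrII:86639-86758 and chrV:364279-364398 (both 310 to 191 bases before).
SSA1: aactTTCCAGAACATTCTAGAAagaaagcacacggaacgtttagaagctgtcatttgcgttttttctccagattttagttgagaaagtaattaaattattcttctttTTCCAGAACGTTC
SSA2: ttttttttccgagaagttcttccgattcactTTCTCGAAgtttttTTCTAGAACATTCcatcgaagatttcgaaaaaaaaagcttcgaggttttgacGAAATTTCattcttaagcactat
SSA3: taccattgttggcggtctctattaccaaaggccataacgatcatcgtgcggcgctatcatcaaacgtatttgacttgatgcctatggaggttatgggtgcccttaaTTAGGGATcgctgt
SSA4: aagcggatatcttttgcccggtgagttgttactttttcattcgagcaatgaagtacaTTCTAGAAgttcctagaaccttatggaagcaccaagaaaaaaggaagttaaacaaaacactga
Within 500 upstream bases, searched on both strands, SSA1 held 2 matches to GAANNTTC and 4 to TTCNNGAA, SSA2 held 2 of each, SSA4 held 1 to TTCNNGAA and SSA3 held none. Matches of the 2 forms may overlap each other. Over 6019 genes with such a window, 19.2% held GAANNTTC and 21.1% held TTCNNGAA. Runs of 3 alternating units occurred in SSA1 and SSA2 and in 1.5% of all windows. The stress response element AGGGG, which Msn2 and Msn4 are known to bind, occurred 2 times in SSA1, 3 times in SSA4 and not in SSA2 or SSA3, and in 34.0% of all windows. TATAAA occurred 3 times in SSA2, 1 time in SSA3, 2 times in SSA4 and not in SSA1, against 60.6% of all windows. The forms TTAGGGAT and TAAGGGAT, searched after the values had been seen, each occurred 1 time in SSA3 and in none of the other members, while 2.6% of all windows held either. A match describes the letters of these windows and is no measure of binding, and where none was found only these spellings are missing.

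**Figure D1:**
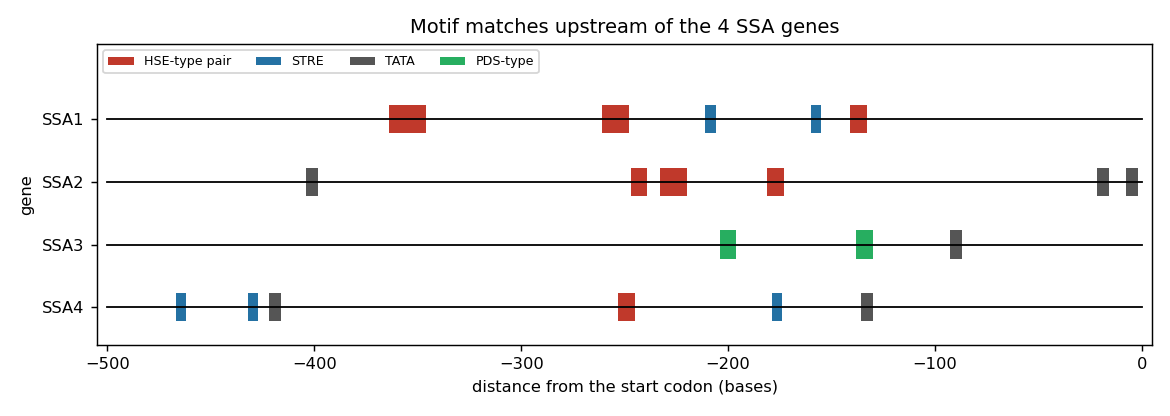
Positions of motif matches in the 500 bases before the start codon of each SSA gene, as distance from the start codon in bases. Red boxes are GAANNTTC or TTCNNGAA (HSE-type pairs, overlapping matches merged in the drawing), blue AGGGG (STRE), grey TATAAA and green TTAGGGAT or TAAGGGAT (PDS-type); SSA1 and SSA2 carry several red boxes, SSA4 carries 1 and SSA3 carries none.

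SSA1 was the second most abundant member in unstressed WT, and its levels in hsf1∆ stood apart from those of all other strains. Untreated WT libraries held 682, 755 and 846 CPM, and heat-shocked WT libraries held 7434, 9601 and 10453 CPM. After AzC the WT values were 11047, 12649 and 11985 CPM, so all 6 stressed libraries lay above the 3 untreated ones. In hsf1∆ the untreated libraries held 72.2, 83.1 and 92.1 CPM, the heat-shocked ones 160, 200 and 228 CPM and the AzC ones 71.2, 97.6 and 88.5 CPM. Every hsf1∆ library, stressed or not, was below every library of the other 3 strains. Ordered by mean, the 6 stressed groups with an HSF1 gene came first, from 12202 ± 355 CPM (labelled msn2/4∆, AzC) to 9163 ± 1556 CPM (WT, heat shock), and each overlapped its neighbour in that order. The untreated HSF1+, WT and labelled msn2/4∆ groups followed at 810 ± 61.3, 761 ± 82.3 and 691 ± 70.6 CPM and also overlapped each other in turn. Heat-shocked hsf1∆ (196 ± 34.4 CPM) stood apart from both of its neighbours, and the AzC and untreated hsf1∆ groups (85.8 ± 13.4 and 82.5 ± 9.94 CPM) overlapped.

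SSA2 was the most abundant member in every untreated group and covered the narrowest range, its highest group mean being 8.25 times its lowest. WT libraries held 2778, 3370 and 3209 CPM untreated, 7505, 9406 and 10094 CPM after heat shock and 10682, 11811 and 11026 CPM after AzC. In HSF1+, which carries the cassette copy, the values were 4118, 5062 and 4711 CPM untreated, 25439, 27691 and 24056 CPM after heat shock and 19422, 21100 and 16102 CPM after AzC. In hsf1∆ they were 2778, 4483 and 5000 CPM untreated, 15131, 17152 and 18109 CPM after heat shock and 3573, 4707 and 4210 CPM after AzC. The heat-shocked hsf1∆ libraries thus lay above all stressed WT libraries, while the AzC libraries of that strain overlapped its untreated ones. Heat-shocked HSF1+ had the highest group mean (25729 ± 1835 CPM) with no overlap to the next, and untreated WT the lowest (3119 ± 306 CPM). The 5 lowest groups, all untreated strains and hsf1∆ AzC, each overlapped the next, from 4630 ± 477 CPM in untreated HSF1+ down to WT. Untreated hsf1∆, at 4087 ± 1163 CPM with replicate 1 lowest, had the highest coefficient of variation of the 12 SSA2 groups, 28.5%.

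SSA3 had the lowest mean of the 4 genes in each stressed group with an HSF1 gene, in CPM as in CPM per kb. WT libraries held 45.6, 51.5 and 48.3 CPM untreated, 1584, 1909 and 2094 CPM after heat shock and 286, 474 and 455 CPM after AzC, with no overlap among the 3 conditions. The 3 heat-shocked strains with an HSF1 gene did not overlap each other and ranked WT (1862 ± 258 CPM), labelled msn2/4∆ (1370 ± 66.3 CPM) and HSF1+ (936 ± 76.0 CPM). After AzC, WT (405 ± 103.6 CPM) and labelled msn2/4∆ (381 ± 55.7 CPM) overlapped, and HSF1+ lay below both at 141, 163 and 105.5 CPM. In hsf1∆ the libraries held 61.2, 66.1 and 58.3 CPM untreated, 89.2, 116.2 and 101.8 CPM after heat shock and 61.2, 68.8 and 59.8 CPM after AzC. Heat-shocked hsf1∆ overlapped HSF1+ AzC, and untreated hsf1∆ lay above the other 3 untreated groups, which ranged in mean from 45.5 ± 3.45 to 50.7 ± 1.32 CPM.

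SSA4 covered the widest range, its highest group mean being 433 times its lowest. WT libraries held 43.8, 57.0 and 63.3 CPM untreated, 16596, 20826 and 23172 CPM after heat shock and 8643, 11093 and 10199 CPM after AzC. HSF1+ libraries held 52.4, 66.1 and 69.3 CPM untreated, 18742, 20654 and 17685 CPM after heat shock and 7510, 6197 and 3910 CPM after AzC, the last being the lowest of the 9 AzC libraries with an HSF1 gene. In hsf1∆ the values were 67.5, 65.3 and 70.4 CPM untreated, 117.4, 135.4 and 145 CPM after heat shock and 60.1, 75.5 and 66.7 CPM after AzC. The heat-shocked labelled msn2/4∆, WT and HSF1+ groups led at 23667 ± 2386, 20198 ± 3333 and 19027 ± 1505 CPM and overlapped in turn. WT and labelled msn2/4∆ after AzC followed at 9978 ± 1240 and 9001 ± 436 CPM and overlapped, and HSF1+ AzC stood below them at 5873 ± 1822 CPM. Heat-shocked hsf1∆ (132.6 ± 14.0 CPM) was above all untreated groups and hsf1∆ AzC, which overlapped in turn between 54.7 ± 9.92 and 67.7 ± 2.57 CPM.

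**Figure D2:**
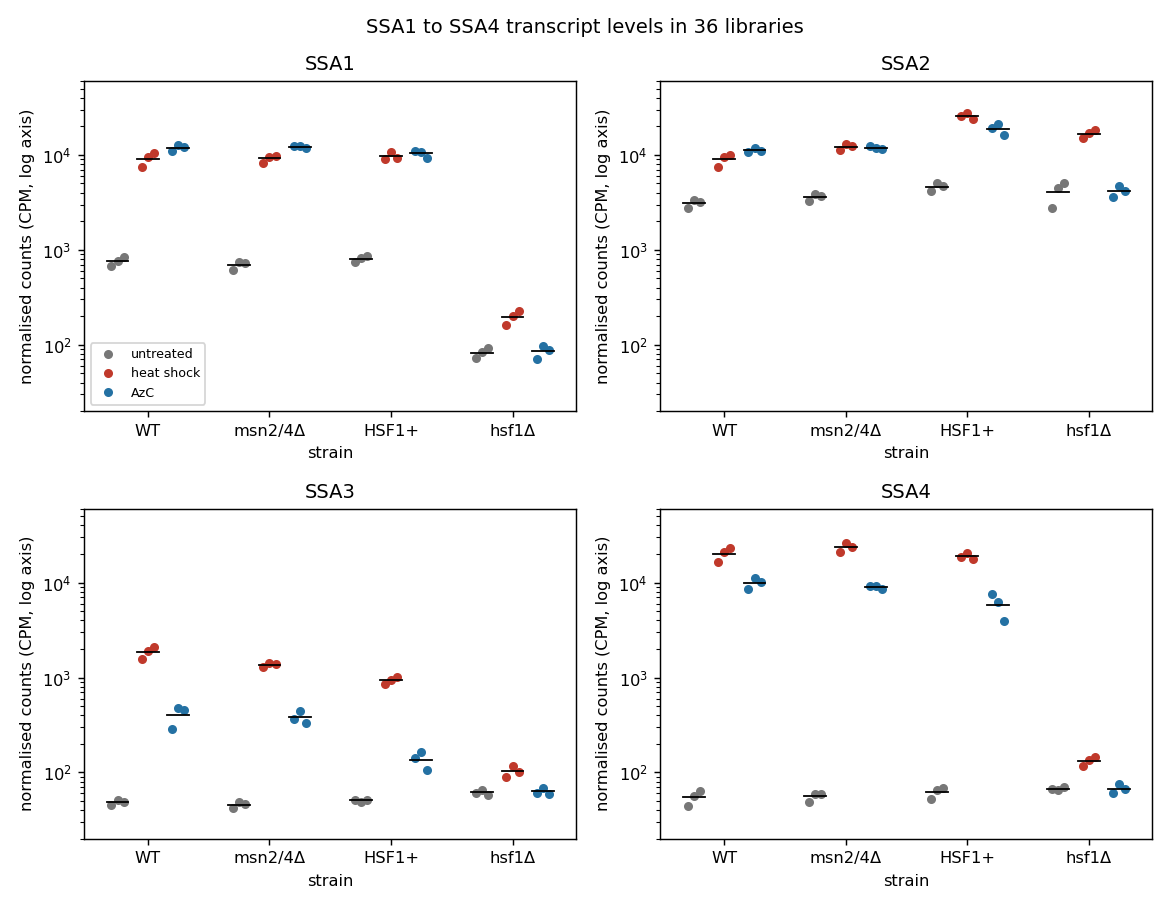
Normalised counts (CPM, log axis) of each SSA gene in all 36 libraries, by strain, with grey untreated, red heat shock and blue AzC points and a line at each group mean. SSA1, SSA3 and SSA4 of hsf1∆ stay at or below 228 CPM in every condition, whereas SSA2 of heat-shocked hsf1∆ reaches 15131 to 18109 CPM.

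In WT, all 4 genes rose under both stresses, SSA4 most and SSA2 least. A gene was called changed at an edgeR quasi-likelihood adjusted p below 0.05 with at least a 2-fold change. Heat shock changed 36.6% of all genes tested, and 4 of 4 SSA genes. The log2 changes under heat shock were 3.59 ± 0.14 for SSA1 (± standard error; adjusted p = 7.45e-18), 1.53 ± 0.16 for SSA2 (1.4e-09), 5.26 ± 0.15 for SSA3 (6.06e-20) and 8.52 ± 0.17 for SSA4 (2.04e-21), the last a 368-fold rise. AzC changed 21.2% of genes in WT, and 4 of 4 members. The AzC changes were 3.97 ± 0.14, 1.84 ± 0.16, 3.06 ± 0.15 and 7.51 ± 0.17 for SSA1 to SSA4, with adjusted p of at most 1.32e-10 by edgeR. SSA1 and SSA2 counted as 1 feature rose by 2.23 ± 0.16 after heat shock and 2.57 ± 0.16 after AzC on the log2 scale.

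SSA3 and SSA4 were called lower after AzC than after heat shock in the 3 strains with an HSF1 gene. In hsf1∆ they were also lower after AzC, but below 2-fold. Between AzC and heat shock, 17.4% of genes were called in WT, and 2 of 4 members, both lower after AzC. SSA3 was lower by a log2 difference of -2.20 ± 0.15 (edgeR adjusted p = 1.33e-12) and SSA4 by -1.02 ± 0.17 (1.17e-05). The SSA4 call in WT stood at the 2-fold line, since its difference was -0.94 when scaled by library size alone and ranged down to -0.91 when 1 library was left out (below 2-fold without WT heat shock replicate 2 or 3 or WT AzC replicate 1). SSA1 and SSA2 differed by 0.38 ± 0.14 and 0.31 ± 0.16, neither reaching 2-fold. SSA1 and SSA2 counted as 1 feature differed by 0.34 ± 0.16 in WT, -0.27 ± 0.16 in HSF1+ and 0.17 ± 0.16 in the labelled msn2/4∆ strain, none called. In HSF1+, where 21.3% of genes were called, the same pair was called, with SSA3 at -2.77 ± 0.15 and SSA4 at -1.70 ± 0.17. In the labelled msn2/4∆ strain, where 13.6% were called, SSA3 differed by -1.85 ± 0.15 and SSA4 by -1.39 ± 0.17. The 15 min of heat and the 1 h of AzC differ in length, so dose and time cannot be told apart from the kind of stress.

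In hsf1∆, SSA2 and SSA1 rose after heat shock, and no member was called after AzC. Heat shock changed 32.2% of genes in hsf1∆ and 2 of 4 members. SSA2 rose by a log2 change of 2.04 ± 0.16 (edgeR adjusted p = 6.74e-12) and SSA1 by 1.25 ± 0.14 (8.81e-09). SSA4 had a log2 change of 0.97 ± 0.18 (1.91e-05) and SSA3 of 0.73 ± 0.15 (0.000102), both below 2-fold. SSA4 passed 2-fold with RLE size factors, with the deep libraries thinned or by DESeq2 (1.02, 1.03 and 1.02), and it did so without hsf1∆ untreated replicate 1, 2 or 3 or hsf1∆ heat shock replicate 1 or 2, over a range that reached 1.12. AzC changed 0% of genes in hsf1∆ by edgeR, with 174 genes at an unadjusted p below 0.05, and DESeq2 called 0 with 165 at that level. The log2 changes of the members after AzC were 0.06 ± 0.14 for SSA1, 0.03 ± 0.16 for SSA2, 0.03 ± 0.15 for SSA3 and -0.01 ± 0.18 for SSA4, with the smallest unadjusted p at 0.702. SSA1 and SSA2 counted as 1 feature had a log2 change of 2.03 ± 0.16 after heat shock and 0.03 ± 0.16 after AzC in hsf1∆. In heat-shocked hsf1∆, SSA1 stood at 1.16% ± 0.102 of the SSA2 level, so the sum does not bear on the SSA1 call. Whether SSA2 reads assigned to SSA1 had a part in the SSA1 changes of hsf1∆ was not tested. Between AzC and heat shock in hsf1∆, 32.4% of genes and 2 of 4 members were called, SSA1 at -1.19 ± 0.14 and SSA2 at -2.01 ± 0.16, with their sum at -2.0001 ± 0.16. SSA3 at -0.69 ± 0.15 (edgeR adjusted p = 0.000166) and SSA4 at -0.98 ± 0.18 (1.62e-05) were lower after AzC too, both below 2-fold.

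**Figure D3:**
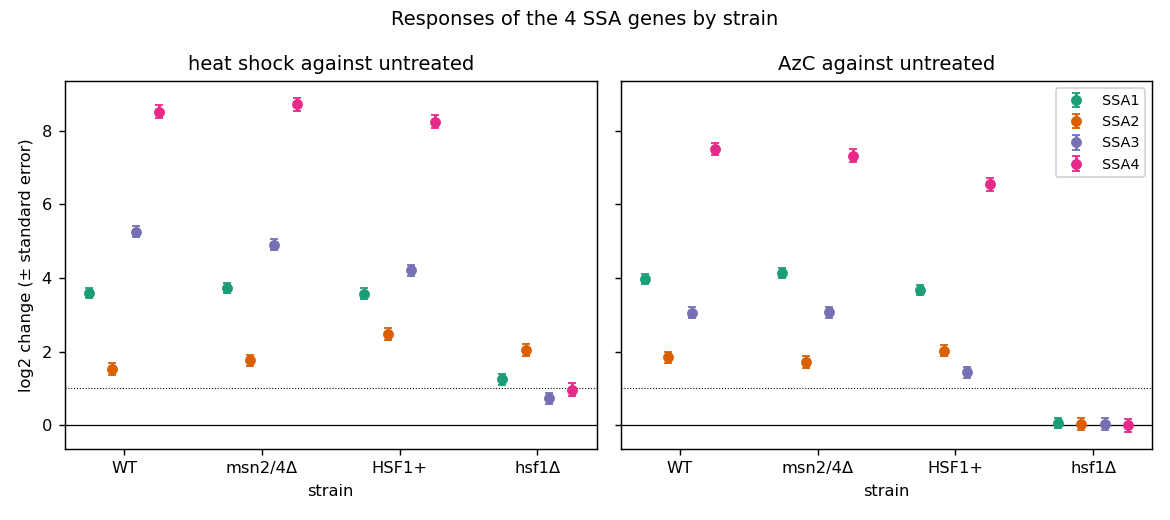
Log2 change of each SSA gene against the untreated libraries of the same strain, with the standard error of the fit, for heat shock (left) and AzC (right); the dotted line is 2-fold. In hsf1∆, SSA2 has a heat change of 2.04 while SSA3 and SSA4 lie at 0.73 and 0.97, and all 4 genes lie within 0.06 of zero after AzC.

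The closest comparison of cells with and without HSF1 was hsf1∆ against HSF1+, since both carry the cassette. The labels also give LYS2 in HSF1+ and not in hsf1∆. Untreated, 3.09% of genes differed, and 1 of 4 members. SSA1 was lower in hsf1∆ by a log2 difference of -3.30 ± 0.14 (edgeR adjusted p = 3.03e-15), whereas SSA2, SSA3 and SSA4 differed by -0.18 ± 0.16, 0.29 ± 0.15 and 0.11 ± 0.18. After heat shock 9.3% of genes and 3 of 4 members differed, SSA1 by -5.63 ± 0.14, SSA3 by -3.19 ± 0.15 and SSA4 by -7.16 ± 0.17, while SSA2 differed by -0.62 ± 0.16 (0.00192), below 2-fold. After AzC 6.37% of genes and 4 of 4 members differed, by -6.92 ± 0.14, -2.18 ± 0.16, -1.11 ± 0.15 and -6.44 ± 0.18 for SSA1 to SSA4. The SSA3 difference after AzC fell below 2-fold with scaling by library size alone (-0.95) or without HSF1+ AzC replicate 2 (-0.998). The summed SSA1 and SSA2 counts differed by -0.38 ± 0.16 untreated (edgeR adjusted p = 0.0641), which did not pass the threshold. In untreated HSF1+, SSA1 stood at 810 CPM and SSA2 at 4630 CPM. A loss of SSA1 alone could therefore not bring the sum to 2-fold, and the sum does not bear on the SSA1 call. The sum differed by -1.06 ± 0.16 after heat shock and -2.79 ± 0.16 after AzC, both called.

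The difference between the 2 strains' responses was also tested directly. For heat shock, 4.62% of genes had a response that differed between hsf1∆ and HSF1+, and 3 of 4 members. The response in hsf1∆ was smaller by -2.33 ± 0.20 for SSA1 (edgeR adjusted p = 1.21e-09), -3.48 ± 0.21 for SSA3 (1.06e-12) and -7.28 ± 0.25 for SSA4 (6.81e-18) on the log2 scale. For SSA2 the difference was -0.44 ± 0.23 (0.179), which did not pass the threshold. For AzC, 3.62% of genes and 4 of 4 members had responses that differed, by -3.63 ± 0.20, -2.001 ± 0.23, -1.40 ± 0.22 and -6.56 ± 0.25 for SSA1 to SSA4.

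SSA2 in the cassette strains was set beside the other cassette genes and beside TDH3, the gene of glycolysis whose promoter the labels read as giving to the cassette copy. In heat-shocked hsf1∆, TDH3 had a log2 change of -0.07 ± 0.12 (edgeR adjusted p = 0.608), YDJ1 of 0.16 ± 0.13 and HSC82 of -0.95 ± 0.18 (2.24e-05), against 2.04 ± 0.16 for SSA2. TDH3 stood at 26143, 28417 and 30176 CPM in untreated hsf1∆ and at 23496, 28027 and 29345 CPM after heat shock, so its 2 groups overlapped while those of SSA2 did not. In heat-shocked HSF1+, the changes were 0.37 ± 0.12 for TDH3, 0.95 ± 0.13 for YDJ1, 1.49 ± 0.18 for HSC82 and 2.47 ± 0.16 for SSA2. The native and cassette copies of SSA2 share the coding sequence and could not be told apart in these counts, and the share of each in the SSA2 response was not tested.

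**Figure D4:**
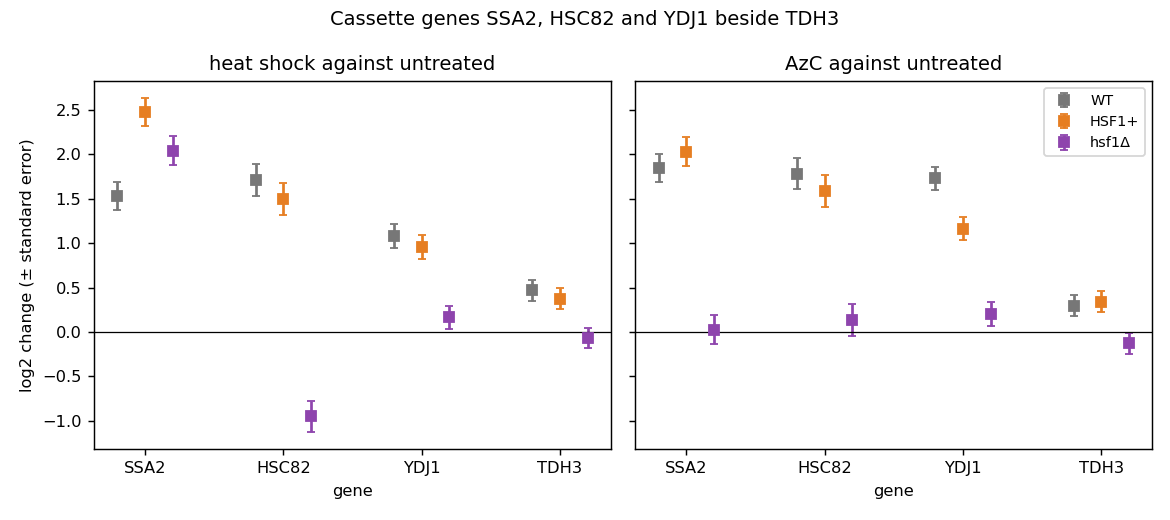
Log2 change (± standard error of the fit) of the cassette genes SSA2, HSC82 and YDJ1 and of TDH3 in WT (grey), HSF1+ (orange) and hsf1∆ (purple), for heat shock (left) and AzC (right). In heat-shocked hsf1∆ SSA2 stands at 2.04 while TDH3 is at -0.07 and HSC82 at -0.95.

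HSF1+ differed from WT in SSA2 and SSA3 under stress, although both carry HSF1. Untreated, 7.45% of genes and 0 of 4 members were called between the 2 strains; SSA2 was at a log2 difference of 0.57 ± 0.16 (edgeR adjusted p = 0.00695), below 2-fold, and was the 1 member at an unadjusted p below 0.05. DESeq2 also called 0 members there. After heat shock 6.91% of genes and 1 of 4 members were called, SSA2 being higher in HSF1+ by 1.52 ± 0.16 (1.11e-08). SSA3 lay at -0.99 ± 0.15 (4.22e-06) there, at the 2-fold line, and crossed it with RLE size factors, library size alone or DESeq2 (-1.003, -1.053 and -1.003) and without WT heat shock replicate 1 or HSF1+ heat shock replicate 2 or 3 (to -1.10). After AzC 9.54% of genes and 1 of 4 members were called, SSA3 being lower in HSF1+ by -1.56 ± 0.15 (1.45e-09), with SSA2 at 0.76 ± 0.16 and SSA4 at -0.76 ± 0.17. SSA1 differed by 0.09, 0.08 and -0.19 in the 3 conditions, none called. For the summed SSA1 and SSA2 counts the HSF1+ difference from WT was 0.49 ± 0.16 untreated, 0.96 ± 0.16 after heat shock and 0.34 ± 0.16 after AzC, all below 2-fold. After heat shock the sum missed the call only by the fold minimum (edgeR adjusted p = 2.84e-05). That sum also holds the counts of SSA1, which differed by 0.08. HSF1 transcript differed between HSF1+ and WT by -0.83 ± 0.13 untreated, -0.35 ± 0.13 after heat shock and -0.76 ± 0.13 after AzC, all below 2-fold, and its part in these differences was not tested.

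Within HSF1+ itself, heat shock changed 30.5% of genes and AzC 4.78%, and 4 of 4 members were called under each. The heat changes were 3.58 ± 0.14, 2.47 ± 0.16, 4.21 ± 0.15 and 8.25 ± 0.18 for SSA1 to SSA4, and the AzC changes 3.68 ± 0.14, 2.03 ± 0.16, 1.43 ± 0.15 and 6.55 ± 0.18. The sum of SSA1 and SSA2 rose by 2.70 ± 0.16 and 2.43 ± 0.16, and its responses differed from those of WT by 0.48 ± 0.23 and -0.14 ± 0.23, neither called. The heat response differed between HSF1+ and WT for 2.72% of genes and 1 of 4 members, SSA3, by -1.06 ± 0.21 (edgeR adjusted p = 0.00125). That call was lost without HSF1+ heat shock replicate 1 (-0.99) or WT heat shock replicate 3 (-0.96), and SSA2 was at 0.95 ± 0.23 (0.00561), below 2-fold, passing it without WT untreated replicate 1, HSF1+ untreated replicate 2 or WT heat shock replicate 3 (1.02, 1.01 and 1.04). The AzC response differed for 4.17% of genes and 1 of 4 members, again SSA3, by -1.63 ± 0.21 (1.01e-05). SSA4 lay at -0.95 ± 0.25 (0.00747) and passed 2-fold with library size alone (-1.14) or without HSF1+ untreated replicate 1, WT AzC replicate 1, WT untreated replicate 3 or HSF1+ AzC replicate 1 (-1.07, -1.05, -1.07 and -1.17).

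The strain labelled msn2/4∆ raised all 4 genes under both stresses. Heat shock changed 32.6% of its genes and 4 of 4 members, with log2 changes of 3.74 ± 0.14, 1.76 ± 0.16, 4.91 ± 0.15 and 8.72 ± 0.18 for SSA1 to SSA4. AzC changed 23% of genes and 4 of 4 members, with changes of 4.14 ± 0.14, 1.72 ± 0.16, 3.06 ± 0.15 and 7.33 ± 0.18. Against WT, 0 of 4 members were called untreated, after heat shock or after AzC, where 0.54%, 9.66% and 2.32% of all genes were. At an unadjusted p below 0.05, 2 of the 12 member comparisons with WT passed by edgeR, SSA2 (0.44 ± 0.16, adjusted p = 0.0215) and SSA3 (-0.44 ± 0.15, 0.0137) after heat shock, both below 2-fold, and DESeq2 called 0. The responses differed from those of WT for 5.75% of genes under heat shock and 0.524% under AzC, and for 0 of 4 members in each by edgeR and by DESeq2 (0 at an unadjusted p below 0.05 by edgeR), with SSA3 at -0.35 ± 0.21 under heat shock. SSA1 and SSA2 summed rose by 2.32 ± 0.16 after heat shock and 2.49 ± 0.16 after AzC in this strain. Their sum differed from WT by 0.15 ± 0.16 untreated, 0.24 ± 0.16 after heat shock and 0.06 ± 0.16 after AzC, and in response by 0.09 ± 0.23 and -0.09 ± 0.23, none called. The msn2/4∆ and HSF1+ comparisons use the same WT libraries.

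Which gene supplied the family's transcripts changed with stress and strain. Levels were divided by coding length here (CPM per kb), and the shares may be too low for SSA1 and SSA2 for the reason given with the shared windows. In untreated WT the family summed to 2072 ± 196 CPM per kb, of which SSA2 made up 78.4% ± 1.29, SSA1 19.1% ± 1.23, SSA4 1.36% ± 0.143 and SSA3 1.20% ± 0.0626. After heat shock the WT sum was 20864 ± 3362 CPM per kb, with SSA4 at 50.2% ± 0.351, SSA1 at 22.7% ± 0.282, SSA2 at 22.5% ± 0.333 and SSA3 at 4.59% ± 0.120. Level and composition varied unequally among these 3 libraries: the coefficient of variation of SSA4 was 16.5% in CPM, while its share lay between 49.9% and 50.6%. After AzC the WT sum was 17365 ± 1396 CPM per kb, with SSA1 at 35.5% ± 0.460, SSA2 at 33.6% ± 1.20 and SSA4 at 29.7% ± 1.38. The 4 genes took 0.372% of all WT counts untreated and 3.94% after heat shock.

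The SSA2 counts of HSF1+ and hsf1∆ could include transcripts of the cassette copy. Sums and shares in these strains may therefore not describe the native genes alone. In heat-shocked HSF1+ the sum was the highest of all groups, at 28757 ± 2197 CPM per kb, with SSA2 at 46.6% ± 0.513 and SSA4 at 34.3% ± 0.312. In hsf1∆, SSA2 made up 94.9% ± 1.36 of the sum untreated, 97.5% ± 0.114 after heat shock and 95.1% ± 0.137 after AzC. The untreated hsf1∆ sum was 2238 ± 611 CPM per kb and so overlapped that of untreated WT, and the 4 genes counted as 1 feature differed from HSF1+ by a log2 difference of -0.37 ± 0.17 (edgeR adjusted p = 0.0881), which did not pass the threshold. After heat shock the hsf1∆ sum reached 8971 ± 821 CPM per kb, a rise of 2.003 ± 0.17 in the summed feature, against 3.32 ± 0.17 in HSF1+. That difference in response was -1.32 ± 0.24 (0.000194). For SSA1 and SSA2 summed, the heat response differed between hsf1∆ and HSF1+ by -0.68 ± 0.23 (0.0345), below 2-fold, and the AzC response by -2.40 ± 0.23 (1.1e-08).

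**Figure D5:**
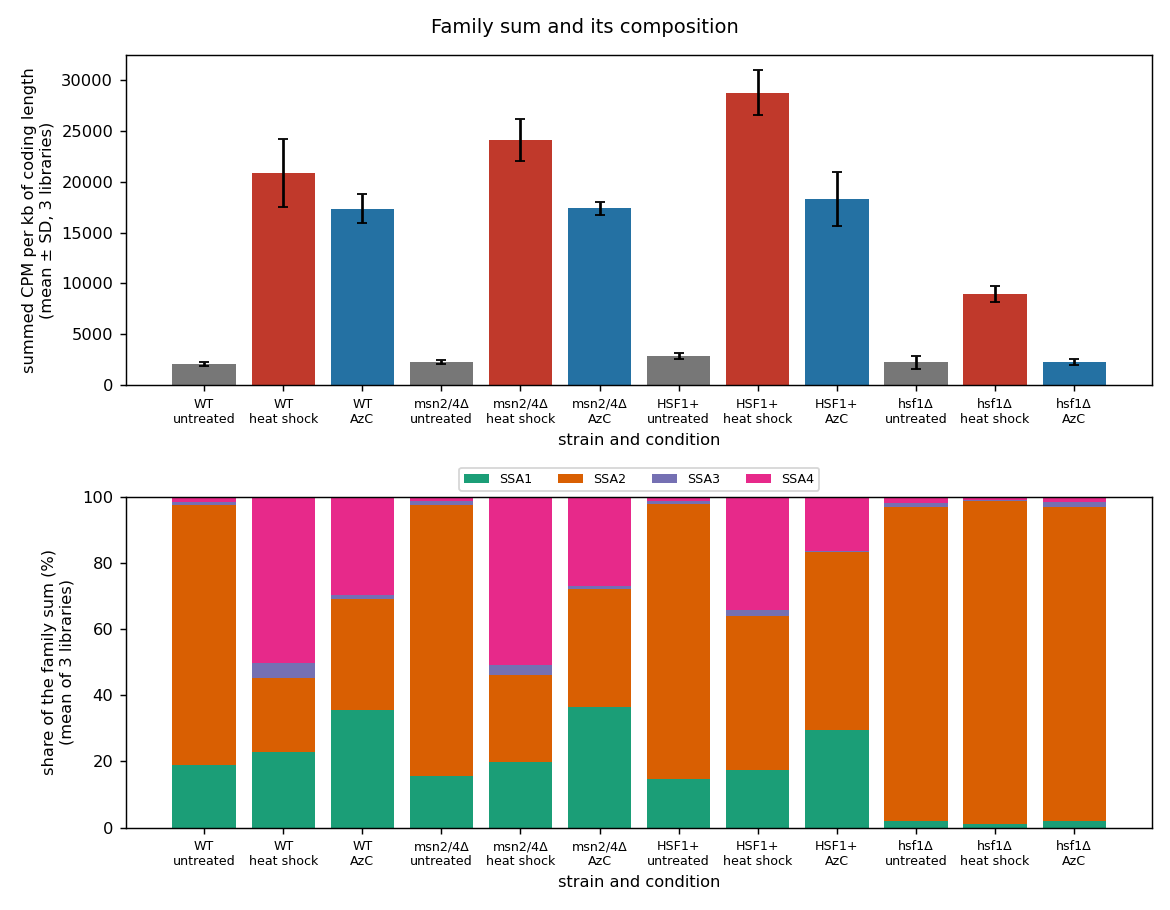
Top, summed level of SSA1 to SSA4 in CPM per kb of coding length, mean ± SD of 3 libraries; bottom, mean share of each gene in that sum, in percent. SSA4 makes up 50.2% in heat-shocked WT, whereas SSA2 makes up at least 94.9% in each hsf1∆ group. SSA2 counts of HSF1+ and hsf1∆ could include the cassette copy.

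The genes whose levels ran most like each member differed from gene to gene. Likeness was Pearson's r of log2 CPM over the 36 libraries among the 5239 genes that averaged 10 CPM or more, and the libraries share strains and treatments, so r describes the 12 groups as much as single libraries. SSA1 ran closest to SIS1, a cytosolic J-protein (0.982), STI1, which links Hsp70 with Hsp90 (0.979), and MBF1, a transcriptional coactivator (0.969). SSA4 ran closest to 3 genes of mitochondrial protein folding, SSC1 for the mitochondrial Hsp70 (0.975), HSP60 for the chaperonin (0.975) and MDJ1 for a J-protein (0.972). For SSA3 they were MDG1 (0.948), ESBP6 (0.943) and ART10, an arrestin-related gene (0.943). The values for SSA2 were lower, with ERO1, the thiol oxidase of the endoplasmic reticulum, at 0.925, AVO2 at 0.898 and RRT8 at 0.896. Between members, r was highest for SSA3 with SSA4 (0.931) and SSA1 with SSA4 (0.901), and lowest for SSA1 with SSA2 (0.636), the pair with the most similar sequence. All values of r for SSA2 include the HSF1+ and hsf1∆ libraries, whose SSA2 counts could hold transcripts of the cassette copy. The part of that copy in these values was not tested.

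The partners of Ssa proteins were counted from 3 lists: 10 other Hsp70-type proteins, 13 J-proteins facing the cytosol and 9 exchange factors and cofactors, with SSE1 and SSE2 in both the first and the last list. In heat-shocked WT, where 36.6% of all genes were called (1178 higher and 1055 lower), 4 of the 10 Hsp70-type genes rose and 3 fell, with a median log2 change of 0.71 against 0.05 over all genes. SSE2, an Hsp110 exchange factor, was highest at 4.93 and SSB1, the ribosome-bound Hsp70, lowest at -3.77. Of the 13 J-proteins 3 rose and 3 fell (median 0.59), from SIS1 at 2.89 to ZUO1, of the ribosome-associated complex, at -2.13, and 6 of 13 called is near the share over all genes. Of the 9 exchange factors and cofactors 7 rose and 2 fell (median 2.31), from HSP104, the disaggregase, at 5.56 to the Hsp90 cochaperone CNS1 at -1.46. After AzC in WT, where 21.2% of all genes were called (617 higher and 679 lower), the counts of risen and fallen were 4 and 3 of 10, 4 and 3 of 13, and 7 and 1 of 9. The ends of those lists were SSE2 (3.97) and SSB1 (-1.96), APJ1 (2.85) and JJJ3 (-2.15), and HSP104 (5.03) and CNS1 (-1.20).

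The same lists were counted for the difference in response between hsf1∆ and HSF1+. YDJ1 in the J-protein list and HSC82 in the list of exchange factors and cofactors also have a cassette copy in both strains. The part of those copies in the counts was not tested. Under heat shock, where 4.62% of all genes were called (219 lower in hsf1∆ and 63 higher), the response was smaller in hsf1∆ for 3 of 10 Hsp70-type genes, 2 of 13 J-proteins and 6 of 9 exchange factors and cofactors, and larger for 0 in each. The lowest values were SSE1 at -2.87, APJ1 at -1.67 and STI1 at -3.43, and the highest were LHS1 at 0.80, SWA2 at 0.81 and SNL1 at 0.27, none of these 3 called. The list medians were -0.43, -0.38 and -1.60, against -0.07 over all genes. Under AzC, where 3.62% of all genes were called (187 lower and 34 higher), the counts were 4 of 10, 2 of 13 and 7 of 9, again with 0 larger. SSE2 stood lowest at -2.33 in the first list, APJ1 at -2.57 in the second and HSP82, for stress-induced Hsp90, at -4.46 in the third, and the highest were SSB1 at 0.74, JJJ3 at 1.05 and CNS1 at 0.48. The list medians under AzC were -0.11, -0.05 and -2.33, against 0.00 over all genes.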

How the data were processed

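The authors deposited 1 table of unnormalized read counts (whole numbers) of 7126 genes in 36 libraries, whose column names carry the BAM suffix of STAR, per the file headers. RNA came from a RiboPure kit and TruSeq poly-A libraries, sequenced on a NovaSeq instrument, per the labels' protocols. Trim Galore, FastQC, STAR, Salmon and build R64 are named in the submitters' processing notes, with no role. The counting tool, strand setting, rule for reads that fit several genes and annotation were not given in the sources used here.

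Counts were tested with edgeR 4.0.16 in R 4.3.3 (TMM, filterByExpr by group, 1 quasi-likelihood model of 12 group means, no block, Benjamini-Hochberg over 6109 genes, 27 contrasts). Standard errors came from the model's information matrix and posterior dispersion. A prior count of 2 entered log2 CPM for likeness. Cells were grown in triplicate per the labels, but what separates the replicates is not stated further, so p-values measure the spread between these libraries. The depth behind every member was at least 510 counts in a library. The parts of counting error and replicate spread in the precision were not tested. Members and lists were chosen with earlier results of these data known. The genes named were the members, the checks HSF1, MSN2 and MSN4, the cassette genes and TDH3, any gene overlapping a member, the 3 genes most like each member, and the ends of the lists in 4 contrasts. Sequences and positions came from the R64 RefSeq genome and annotation, in which 4 of 4 members matched by name, with proteins translated and aligned in Biopython 1.88. The model was tested on simulated data.

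Alternatives were RLE size factors, library size alone, no low-count filter, no fold minimum, compared groups alone, the deep libraries thinned, DESeq2 1.42.0, replicate number as a block, shares without length and leaving out each library. Same-numbered libraries deviated together, with every correlation over 0.1, in 12 of 21 simple contrasts (range -0.09 to 0.65). Deviations were taken from each group's own mean, so a positive value for same-numbered libraries implies a negative mean covariance with the other numbers. In those 12 contrasts same-numbered libraries were therefore more alike than differently numbered ones on average. What the shared numbers stand for is not stated, and the main model held no block for them.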

Additional observations from a re-analysis of the deposited data

Results flagged for a closer look

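Responses that differed between strains by a direct test (edgeR interaction, adjusted p below 0.05 and at least 2-fold) are listed here as log2 differences. Between hsf1∆ and HSF1+, the heat shock response was smaller in hsf1∆ for SSA1 (-2.33), SSA3 (-3.48) and SSA4 (-7.28). The AzC response was smaller in hsf1∆ for SSA1 (-3.63), SSA2 (-2.001), SSA3 (-1.40) and SSA4 (-6.56). Between HSF1+ and WT, SSA3 alone of the 4 genes was called, with a response smaller in HSF1+ by -1.06 under heat shock and by -1.63 under AzC. Both strains of the first set carry the additional SSA2 copy, and its part in the SSA2 values was not tested.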

How the results depend on the processing

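Of the 4 log2 changes in each of 27 contrasts, the number that changed direction or call was 4 with RLE size factors, 5 with library size alone, 2 with no low-count filter, 2 with the compared groups alone, 5 with the deep libraries thinned, 4 with DESeq2 and 0 with the replicate block. With the replicate block, as without it, 4 of 4 members were called in heat-shocked WT, and no count of members called moved.

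Members called with no fold minimum became 4 for hsf1∆ heat shock, 4 for hsf1∆ AzC against heat shock, 1 for HSF1+ against WT untreated, 2 for HSF1+ against WT and 2 for labelled msn2/4∆ against WT after heat shock, 3 for HSF1+ against WT after AzC, and 2 for each HSF1+ against WT interaction. Called members became 1 for WT AzC against heat shock with library size alone or no low-count filter (SSA4 at -0.94 and -0.998), 2 for HSF1+ against WT after heat shock with RLE, library size alone or DESeq2, and 2 for the HSF1+ against WT AzC interaction with library size alone. SSA4 in hsf1∆ between AzC and heat shock passed 2-fold with RLE, thinning or DESeq2 (-1.03, -1.04 and -1.03). Smaller moves came with no fold minimum, where SSA2 was added between hsf1∆ and HSF1+ after heat shock (edgeR adjusted p = 0.00192). For AzC against heat shock, that setting added SSA1 in WT (0.021) and labelled msn2/4∆ (0.0152) and SSA2 in HSF1+ (0.0148). Leaving out 1 library gave 1 to 2 called members for WT AzC against heat shock, 1 to 2 for HSF1+ against WT after heat shock, 0 to 2 for the HSF1+ against WT heat interaction and 1 to 2 for its AzC interaction.

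Signs turned only among differences that were not called and lay near zero: SSA2 of labelled msn2/4∆ AzC against heat shock with library size alone (0.0070); SSA1 of labelled msn2/4∆ against WT after heat shock with RLE (-0.0018), compared groups alone (-0.023), thinning (-0.012) and DESeq2 (-0.0018); SSA1 in the HSF1+ against WT heat interaction with no filter (0.00052) and thinning (0.0076); SSA3 in the labelled msn2/4∆ against WT AzC interaction with compared groups alone (-0.025) and thinning (-0.043). Leaving out 1 library, signs turned within -0.049 to 0.16 (SSA1), -0.19 to 0.19 (SSA2), -0.031 to 0.077 (SSA3) and -0.098 to 0.058 (SSA4) for hsf1∆ AzC. Against WT after heat shock they did within -0.051 to 0.18 (SSA1) and -0.21 to 0.026 (SSA4) for HSF1+, and -0.12 to 0.11 (SSA1) for labelled msn2/4∆. For labelled msn2/4∆ against WT they also did within -0.014 to 0.083 (SSA1) and -0.29 to 0.041 (SSA3) after AzC, and -0.10 to 0.15 (SSA4) untreated. The remaining ones were -0.38 to 0.00045 (SSA2, untreated hsf1∆ against HSF1+), -0.095 to 0.0022 (SSA2, labelled msn2/4∆ AzC against heat shock), -0.14 to 0.094 (SSA1, HSF1+ against WT heat interaction) and -0.19 to 0.13 (SSA3, labelled msn2/4∆ against WT AzC interaction).

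Library size alone moved the median log2 change of all genes by over 0.1 in several contrasts, for example from 0.02 to 0.16 for WT AzC and from 0.11 to 0.27 for heat shock in labelled msn2/4∆. It also moved the share of higher among called genes from 47.6% to 57.9% for WT AzC, from 29.9% to 50.6% for heat-shocked hsf1∆ against HSF1+ and from 60.8% to 24.8% for the HSF1+ against WT AzC interaction. The cause of these changes was not tested. Every member had at least 510 counts in every library.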
